A study of Rattus norvegicus with 12 samples.

Results

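The comparison described here set rat uterine tissue that had been scraped and then given a printed patch without cells (CP) against tissue that had been scraped and given no patch (AS). It took in 6 of the 12 libraries of the series, 3 of each group, picked by their labels alone. The animals were female rats of 8 weeks whose uterine lining was abraded with a bent needle until it looked bloody and pale. The patch was printed without cells from a material that the submitters call Endo-UdECM. The same patch carrying cells (EEP, 3 libraries) was placed 2 days after the injury, and uninjured tissue (normal, 3 libraries) completes the series. The CP group therefore carries the injury of the AS group plus the cell-free patch. No strain, harvest time or animal number was given. The day of placement was stated for the cell-bearing patch alone, and the same 2 days were taken for CP. The control patch was described for the horn opposite the cell-bearing patch, so horns of 1 animal could stand in different groups, and the labels do not tie libraries to animals. The p-values below therefore measure the spread between libraries, which may be technical in part. The label reads endometrium, but uterine tissue was harvested, and transcripts of muscle were abundant in every library (Myh11, the smooth muscle myosin heavy chain, 616 to 1138 CPM over the 6 libraries).

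Mechanical loss of the uterine lining is the usual way of modelling intrauterine adhesion in rodents. The lining consists of a luminal epithelium, glands and a stroma, over layers of smooth muscle, and repair after abrasion involves closure of the epithelium, inflammation and deposition of collagen. The comparison asks how injured tissue with the printed material alone differed from injured tissue left without it.

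Levels are 3′ tag counts scaled to library size by TMM (CPM), where 1 tag stands for 1 transcript, so that gene length does not enter. The 6 libraries held 5406379 to 8938227 counts. Transcripts of the 37 mitochondrial genes took 64.8 to 82.5% of them and left 1414958 to 2793295 nuclear counts per library. The mitochondrial share was 71.1 ± 3.56% in AS and 71.3 ± 9.76% in CP (SD, n = 3 each), with an exact two-sided permutation p of 1.0, where 0.1 is the smallest that 3 against 3 allows. The difference of 0.177 points turned to -5.43 points without CP 1, the library with 82.5%. AS 1 and CP 1 stood apart from the other 4. Over 13909 genes their median correlation of log2 levels with the other AS and CP libraries was 0.757 and 0.769, against 0.834 to 0.855 for the rest. Results that move with AS 1 or CP 1 are given below with and without them.

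Of the 13909 genes tested, 1 differed between CP and AS at an adjusted p under 0.05 (edgeR quasi-likelihood test, Benjamini-Hochberg adjustment), or 0.00719%. It was higher in CP, and 0 genes (0.0%) were called lower. Before adjustment, 1667 genes (12%) had a p under 0.05, 734 higher (5.28%) and 933 lower (6.71%). DESeq2 called 132 of the 12240 genes to which it gave an adjusted p (1.08%), 60 higher (0.49%) and 72 lower (0.588%). Limma voom with library quality weights called 0 genes, with 1764 at an unadjusted p under 0.05. The authors' deposited table gave 1273 genes a p under 0.05 for this comparison and 0 genes a q under 0.05, the smallest q being 0.437. The median log2 fold change over all genes tested was -0.02. The 3 CP libraries lay wholly above the 3 AS libraries for 1214 genes (8.73%) and wholly below them for 1282 (9.22%).

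The called gene was Fam111a, which encodes a serine protease known in human cells to clear protein adducts from DNA ahead of replication forks. Its level was 1.17, 3.26 and 2.37 CPM in AS 1 to 3 and 64.1, 85.1 and 36.9 CPM in CP 1 to 3. Every CP library stood more than 10 times above the highest AS library, and the 36 AS counts faced 956 CP counts. The log2 fold change was 4.77 (SE 0.559, edgeR adjusted p = 0.00255). Normal tissue held 80.1 ± 23.4 CPM and tissue with the cell-bearing patch 67.5 ± 34.5 CPM (SD, n = 3 each), so that the AS libraries were the low ones of all 4 groups. Limma voom gave an adjusted p of 0.0788 for it and a log2 fold change of 4.46. The authors' deposited table listed a fold of 19.3 for Fam111a with a p of 0.0132 and a q of 1.0. The gene lies on chromosome 1, plus strand, at 209640865 to 209656551 in the deposited table, whose information sheet names the build mRatBN7.2.

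The promoter of Fam111a is shown because it belongs to the only called gene. The window runs from 250 bases before to 50 after the start in RefSeq on GRCr8, chr1:219065389-219065688, plus strand, a build other than that of the counts. Capitals mark CCAAT, the motif of the CCAAT box, searched on both strands.
Fam111a: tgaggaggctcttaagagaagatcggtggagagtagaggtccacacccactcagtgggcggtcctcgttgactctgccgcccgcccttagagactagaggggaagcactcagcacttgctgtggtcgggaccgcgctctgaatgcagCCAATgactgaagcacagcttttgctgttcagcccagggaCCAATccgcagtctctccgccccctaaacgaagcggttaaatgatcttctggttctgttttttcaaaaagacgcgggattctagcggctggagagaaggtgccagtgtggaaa
The window holds 2 matches, and CCAAT occurs in 37.5% of the 33469 rat promoter windows of the same length. A match is a description of the letters and not a site of binding.

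Genes with LOC, RGD, AABR or AC identifiers that were not called are left out of the ranking by p-value. Among the rest, the next 11 genes by p-value that were higher in CP did not pass the edgeR test, with adjusted p from 0.167 to 0.226. DESeq2 called each of them, but they were picked by p-value from the same counts, so these calls are no separate support. On simulated counts DESeq2 called 0.282% of unchanged genes and 40% of 4-fold changes, against 0.0387% and 16% for edgeR. Those counts were drawn with the spread that edgeR estimated and with no library set apart like AS 1 or CP 1. They therefore cannot decide which tool is nearer the truth here. Pnoc encodes the precursor of the neuropeptide nociceptin. It stood at 12.6, 9.40 and 4.55 CPM in AS and 144, 71.7 and 86.4 CPM in CP, beside 17.4 ± 3.66 CPM in normal tissue. The CP libraries thus lay above injured and uninjured tissue alike (log2 fold change 3.50, SE 0.674, edgeR adjusted p = 0.167).
Smpd3, a neutral sphingomyelinase, stood at 1.67, 0.192 and 1.78 CPM in AS and 15.3, 12.9 and 13.3 CPM in CP. Its CP libraries were close to each other and all above AS. Usp6nl, a GTPase-activating protein for Rab5, stood at 9.21, 11.1 and 11.3 CPM in AS against 45.0, 33.4 and 35.6 CPM in CP. Klhl24, a substrate adaptor of a cullin ubiquitin ligase that acts on keratin 14, stood at 57.3, 41.6 and 55.9 CPM against 225, 158 and 135 CPM. Both had groups that did not overlap, and so had Pkp4, a protein of cell junctions (log2 fold change 1.76), Clmn (2.99), Plekhh1 (2.74) and Samd1l1 (2.00). Prkg1, a cGMP-dependent protein kinase, had 1 count in all of AS and 5.04 to 9.05 CPM in CP, a pooled ratio of 101 with a 95% counting interval of 17.6 to 4010.

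The remaining genes among the leading higher ones belong to stratified epithelium. Spink5, a protease inhibitor of keratinised epithelia, had 0, 0 and 0.198 CPM in AS and 0.251, 4.20 and 8.94 CPM in CP. Krt5, the keratin of basal epithelial cells, was at 0 in every AS library and in CP 1, and at 8.90 and 5.33 CPM in CP 2 and CP 3. Against the floor of 3 counts over the AS group, Krt5 was at least 28.9-fold higher in CP. Krt15 ran 8.71, 0.192 and 0.198 CPM in AS against 4.78, 17.5 and 22.3 CPM in CP (edgeR adjusted p = 0.440). Without CP 1, Krt5 and Spink5 were called by edgeR (adjusted p = 0.0155 and 0.0151). Among the 6 AS and CP libraries, CP 2 and CP 3 were the highest for each of the 3 genes. The cell-bearing patch group stood higher, at 36.5 ± 6.17 CPM of Spink5, 18.5 ± 8.31 CPM of Krt5 and 52.1 ± 12.7 CPM of Krt15 (SD, n = 3), and was not compared with CP by a test.

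**Figure D1:**
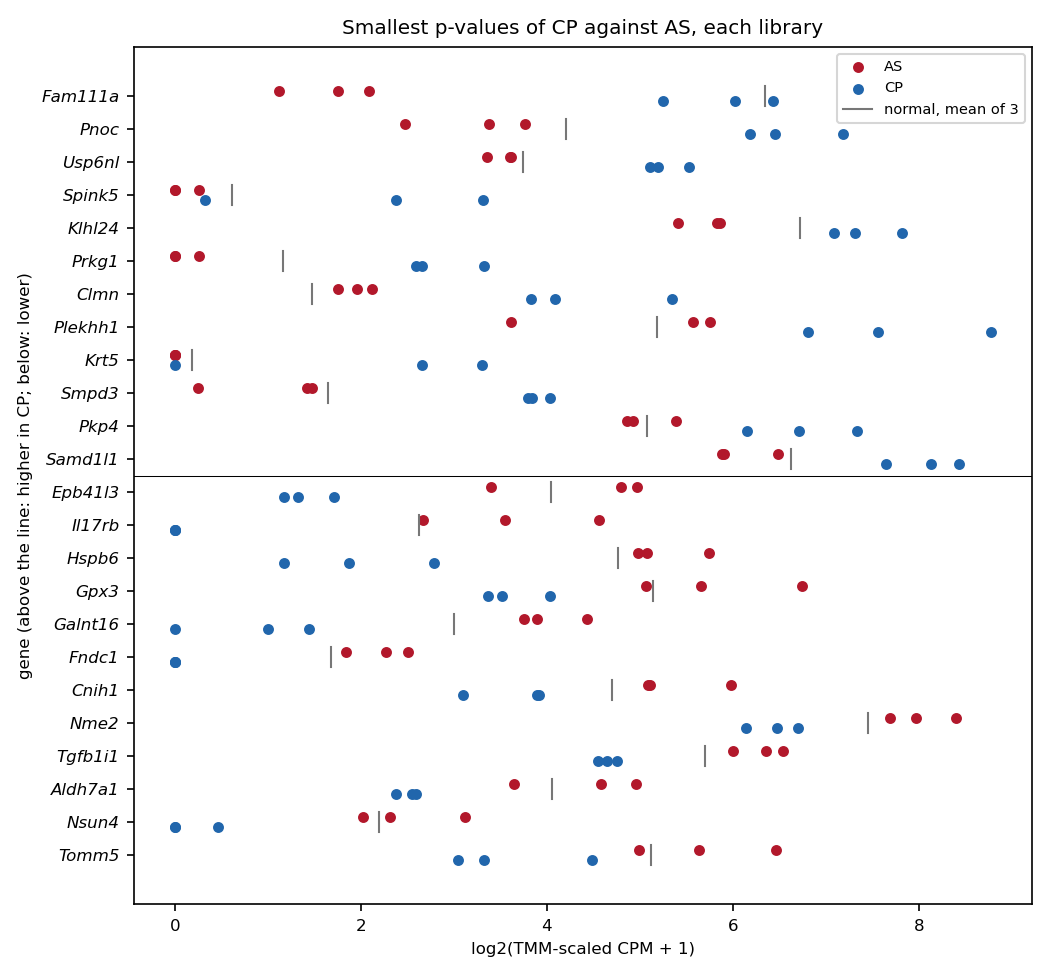
The level of 24 genes, the 12 with the smallest p-values in each direction once uncalled LOC, RGD, AABR and AC identifiers are left out. Each AS library (red) and CP library (blue) is drawn on a log2(CPM + 1) axis. The mean of the 3 normal libraries is a grey line. Of the 24 genes, 23 had groups that did not overlap (beside 17.9% of all genes), which picking by p-value favours. Fam111a alone passed the adjusted test.

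Among the genes lower in CP, ranked with the same identifiers left out, the 12 with the smallest p-values had edgeR adjusted p from 0.0841 to 0.226. Their groups did not overlap (beside 9.22% of all genes, lower), and DESeq2 called each of them (beside 0.588%, lower). They were picked by p-value from the same counts, so neither is separate support. Epb41l3, protein 4.1B of the membrane skeleton, ran 9.54, 30.3 and 26.9 CPM in AS and 1.26, 1.51 and 2.28 CPM in CP. Normal tissue had 15.5 ± 8.30 CPM, and the log2 fold change was -3.70 (SE 0.601, edgeR adjusted p = 0.0841). Without AS 1 the gene was called (edgeR adjusted p = 0.00923). Il17rb, a receptor subunit for interleukin 25, ran 5.36, 10.7 and 22.5 CPM in AS and was at 0 in all 3 CP libraries. Against the floor of 3 counts over the CP group this is at least 63.0-fold lower. The cell-bearing patch group held 0.676 CPM on average and normal tissue 5.17 CPM, so that both patch groups were low for it; they were not compared by a test.
Hspb6, a small heat-shock protein of muscle, ran 52.6, 32.8 and 30.4 CPM in AS and 1.26, 5.88 and 2.66 CPM in CP. Gpx3, the secreted glutathione peroxidase, ran 32.5, 49.5 and 107 CPM in AS and 9.30, 10.4 and 15.4 CPM in CP. With the mitochondrial share as a covariate edgeR called Hspb6, and without AS 1 it called Gpx3 and Il17rb.
Fndc1, which carries fibronectin type III domains, was at 0 in all 3 CP libraries and at 2.57 to 4.69 CPM in AS, at least 19-fold lower. Galnt16, which starts O-glycosylation, ran 20.6, 12.5 and 13.8 CPM in AS and 0, 1.01 and 1.71 CPM in CP. Tgfb1i1, the focal adhesion protein Hic-5, ran 91.8, 62.9 and 80.8 CPM against 24.1, 26 and 22.5 CPM. Nme2, a nucleoside diphosphate kinase, ran 338, 249 and 205 CPM against 69.4, 87.6 and 103 CPM. Genes that work in mitochondria were also in this group: Tomm5, a subunit of the import channel (log2 fold change -2.14), and Nsun4, an RNA methyltransferase of the mitochondrial ribosome (7.70, 3.07 and 3.95 CPM in AS and 0, 0 and 0.381 CPM in CP).

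**Figure D2:**
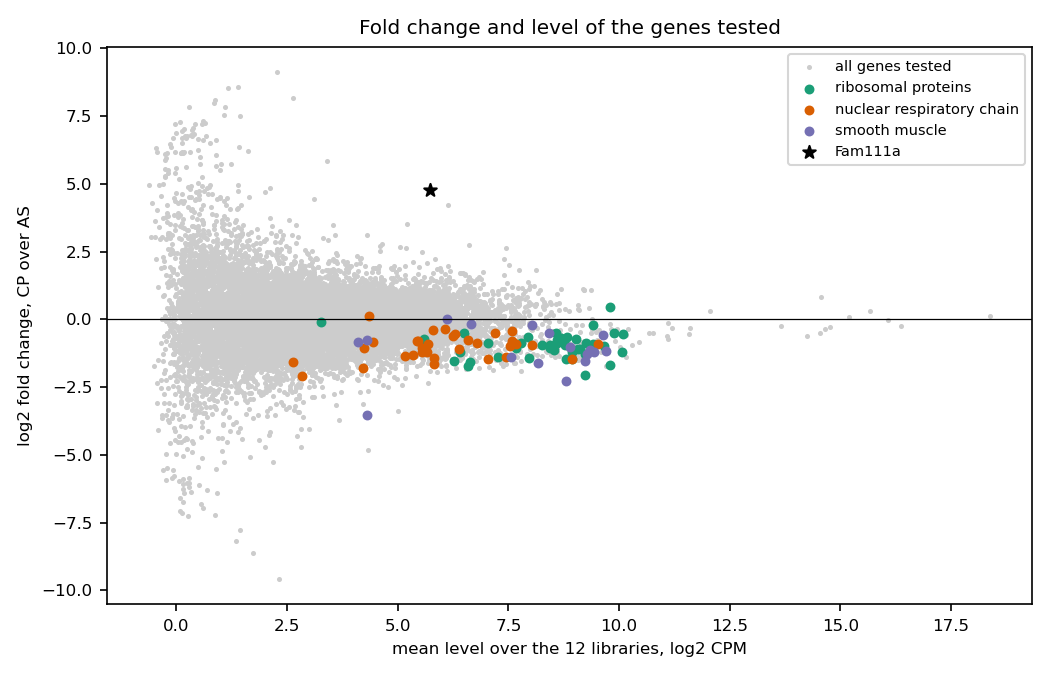
The log2 fold change of CP over AS (vertical) against the mean log2 CPM over the 12 libraries (horizontal) for the 13909 genes tested (grey), with ribosomal protein, respiratory chain and smooth muscle genes coloured. The 3 coloured lists sit below 0 for 43 of 44, 32 of 33 and 16 of 17 members, and the star marks Fam111a at 4.77.

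Of the 38 gene lists described, those with the most members at an unadjusted p under 0.05 were the ribosomal proteins, the nuclear-encoded respiratory chain and smooth muscle. The lists were chosen with earlier results of these data known, and 0 of their members passed the adjusted edgeR test. The shares to read them against are 6.71% of all genes lower at an unadjusted p under 0.05, 9.22% not overlapping and lower, and 50.7% with a log2 fold change below 0 (49.2% above 0).

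Smooth muscle genes carry the contractile apparatus of the uterine wall. Of 17 tested, 16 had a log2 fold change below 0, with a median of -1.11 beside -0.02 over all genes. Of them 10 were lower at an unadjusted p under 0.05, 12 did not overlap and DESeq2 called 4. Mylk, the myosin light chain kinase, ran 929, 909 and 946 CPM in AS and 376, 358 and 473 CPM in CP, so that its AS libraries were close together and all above CP (log2 fold change -1.21, edgeR adjusted p = 0.286). Tpm1, a tropomyosin, ran 1084, 972 and 960 CPM in AS against 341, 380 and 671 CPM in CP. Acta2, smooth muscle actin, ran 1297, 691 and 848 CPM against 365, 270 and 532 CPM. Normal tissue held 967 CPM of Mylk, 709 CPM of Tpm1 and 718 CPM of Acta2, each above every CP library. Actg2, enteric smooth muscle actin, was more uneven, at 2003, 374 and 324 CPM in AS against 213, 102 and 246 CPM in CP.
Not every muscle gene was low. Des, which encodes desmin, ran 655, 257 and 272 CPM in AS and 443, 201 and 391 CPM in CP, and Lmod1, leiomodin, had a log2 fold change of 0.03. Without AS 1, the list's median was -0.79, with 16 of 17 members below 0 and 6 lower at an unadjusted p under 0.05, beside 3.86% of all genes. In whole tissue, fewer cells of a type and less RNA per cell cannot be told apart.

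Ribosomal protein genes encode the protein part of cytoplasmic ribosomes and tend to vary together. Of 44 tested, 43 had a log2 fold change below 0, with a median of -0.94, and 28 were lower at an unadjusted p under 0.05. In 30 the groups did not overlap, and DESeq2 called 5. Rps2 ran 2354, 548 and 773 CPM in AS and 332, 326 and 231 CPM in CP (log2 fold change -2.05, SE 0.495, edgeR adjusted p = 0.241). Rpl13 ran 185, 108 and 138 CPM against 35.4, 61.8 and 32.7 CPM, and Rpl8 ran 164, 92.9 and 148 CPM against 51.5, 54.4 and 34.1 CPM. In all 3 genes AS 1 was the highest library and every CP library was below every AS library. Rpl24 was the exception of the list, at 1055, 717 and 723 CPM in AS and 899, 1189 and 1333 CPM in CP. Ribosomal protein genes have many processed copies in rodent genomes, and how reads shared with them were counted was not given.
The difference was smaller without AS 1. The summed list stood at 41890, 19950 and 20150 CPM in AS and 14720, 15410 and 13390 CPM in CP, with 18170 to 22640 CPM in normal tissue. Without AS 1 the median was -0.53 and 42 of 44 members stayed below 0. Of the 44, 5 were then lower at an unadjusted p under 0.05, beside 3.86% of all genes.

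The nuclear-encoded respiratory chain genes supply the subunits that electron transport and ATP synthesis need beside those of the mitochondrial genome. Of 33 tested, 32 had a log2 fold change below 0, with a median of -0.96, and 20 were lower at an unadjusted p under 0.05. DESeq2 called 0 of them, and 16 did not overlap. Cycs, cytochrome c, ran 12.4, 8.06 and 9.88 CPM in AS and 2.51, 1.51 and 3.04 CPM in CP. Ndufb8, a subunit of complex I, ran 498, 173 and 174 CPM against 94.3, 111 and 117 CPM. Cox6c, a subunit of cytochrome c oxidase, ran 985, 701 and 500 CPM against 202, 282 and 299 CPM. Ndufb10, another subunit of complex I, ran 40.7, 29.5 and 10.5 CPM against 3.52, 12.9 and 6.47 CPM, and its groups overlapped. AS 1 was the highest library in each of these genes, and the groups of the other 3 did not overlap. Cox6c was named after its values were seen.
Summed, the list stood at 7592, 4244 and 3864 CPM in AS and 2492, 2945 and 2512 CPM in CP. Without AS 1 the median was -0.56, with 31 of 33 below 0. Of the 33, 5 were then lower at an unadjusted p under 0.05, beside 3.86% of all genes. Sdha, the flavoprotein of complex II, was the member above 0, at 0.12.

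**Figure D3:**
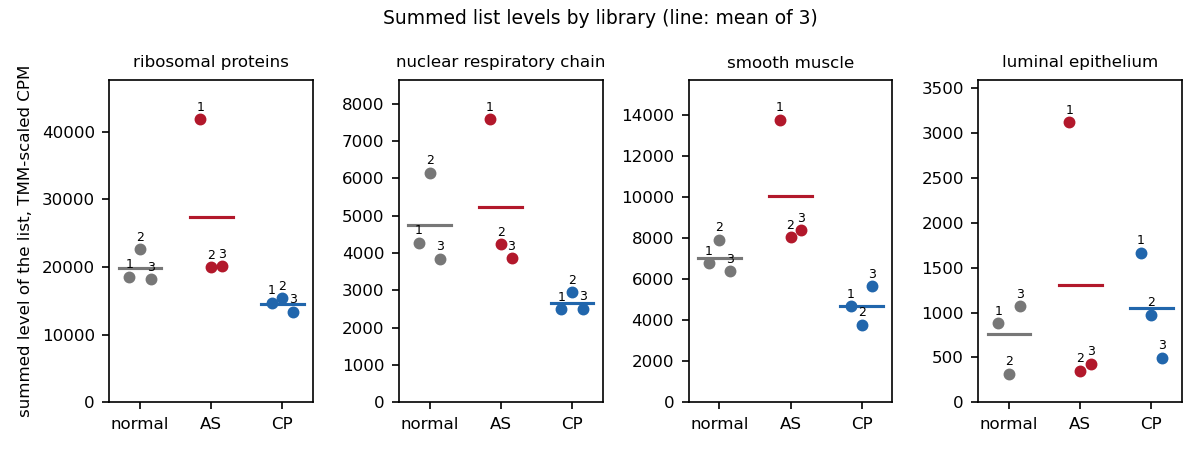
The summed CPM of 4 gene lists (vertical, from 0) in each normal, AS and CP library, numbered by replicate, with the mean of 3 as a line. AS 1 is the highest library in all 4 panels, and for ribosomal proteins, respiratory chain and smooth muscle the CP libraries lie below AS 2 and AS 3 as well.

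Promoters of Rps2 and Cox4i1 (a cytochrome c oxidase subunit at 212, 82.5 and 83.0 CPM in AS and 45.2, 83.6 and 48.9 CPM in CP) are shown as examples of a motif that occurs in promoters of some members of both lists. Capitals mark CCGGAAG, the core bound by the GABP factor, or its complement CTTCCGG. The windows are RefSeq on GRCr8, chr10:14251598-14251897 and chr19:65630133-65630432, both on the plus strand.
Rps2: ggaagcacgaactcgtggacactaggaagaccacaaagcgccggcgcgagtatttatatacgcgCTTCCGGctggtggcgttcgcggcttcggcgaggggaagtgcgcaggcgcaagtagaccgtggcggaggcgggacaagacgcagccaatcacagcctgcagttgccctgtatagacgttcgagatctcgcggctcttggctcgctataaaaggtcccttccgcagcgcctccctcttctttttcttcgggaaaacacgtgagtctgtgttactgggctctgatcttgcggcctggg
Cox4i1: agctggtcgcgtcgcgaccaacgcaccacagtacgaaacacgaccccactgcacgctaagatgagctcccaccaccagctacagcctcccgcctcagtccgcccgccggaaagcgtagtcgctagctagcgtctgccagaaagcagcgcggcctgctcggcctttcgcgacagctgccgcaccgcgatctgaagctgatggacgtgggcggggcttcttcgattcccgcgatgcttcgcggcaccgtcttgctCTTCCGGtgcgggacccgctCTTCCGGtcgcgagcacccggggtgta
CCGGAAG, on either strand, occurs in 8 of 33 ribosomal protein promoters matched (24.2%), 11 of 30 of the respiratory chain (36.7%) and 0 of 12 of smooth muscle (0.0%). Among promoters of all genes tested it occurs in 17.5%, and among all 33469 windows in 8.75%. The shares describe letters in the windows and say nothing about the factor.

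The make-up of the nuclear counts moved with these lists. As a share of nuclear counts, ribosomal protein transcripts were 6.55 ± 2.08% in AS and 4.10 ± 0.386% in CP, and genes spanning under 10 kb were 41.5 ± 7.27% and 33.1 ± 0.837%. Genes spanning over 100 kb were 10.6 ± 3.34% and 13.8 ± 0.426%, and lncRNA genes 1.09 ± 0.397% and 1.72 ± 0.0573% (SD, n = 3 each; exact two-sided permutation p of 0.1 for each, the smallest possible). The ribosomal protein list was chosen with earlier results of these data known, so its p is no separate support. Rps2, Rpl13 and Rpl8 span under 10 kb, so that the share of short genes holds them too. In normal tissue the long genes took 12.1 ± 0.0720% and lncRNA genes 1.08 ± 0.0604%. The genes higher in CP at an unadjusted p under 0.05 had a median span of 33.7 kb and those lower 11.3 kb, beside 22.8 kb for all. Without AS 1 the differences were smaller. AS 1 held 49.9% in genes under 10 kb, against 37 and 37.7% in AS 2 and AS 3, and without it the difference of CP minus AS went from -8.40 to -4.21 points. In genes over 100 kb AS 1 held 6.77%, against 12.8 and 12.3%, and the difference went from 3.13 to 1.21 points. The difference in lncRNA genes went from 0.630 to 0.401 points and that in ribosomal protein transcripts from -2.46 to -1.25 points. The part of these shares in the list results was not tested.
With the genes in 10 equal groups by genomic span, the median log2 fold change was -0.27 for the shortest genes and 0.24 for the longest. Without AS 1 and CP 1 the medians of the 10 groups ran from -0.08 to 0.16.

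**Figure D4:**
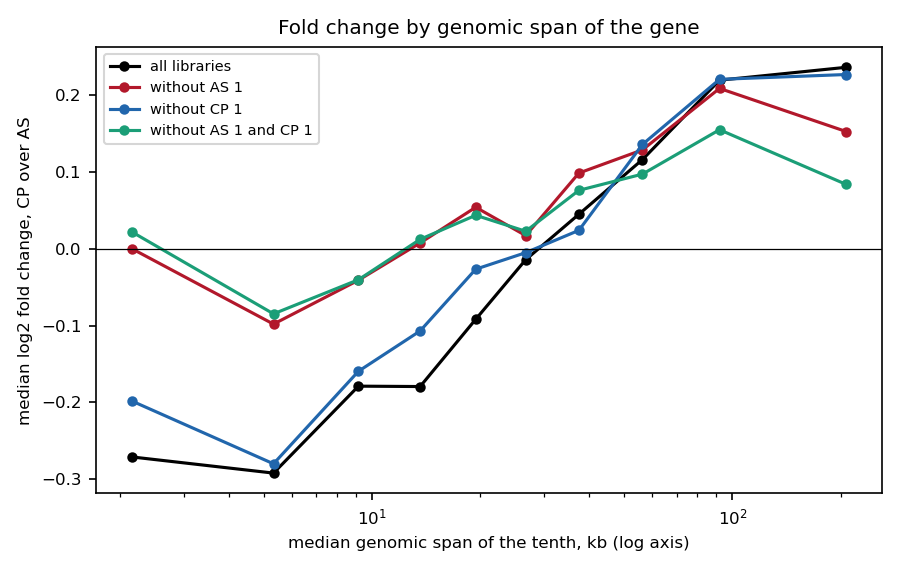
The median log2 fold change of CP over AS (vertical) in 10 equal groups of genes by genomic span (horizontal, kb, log axis), with all libraries and without AS 1, CP 1 or both. With all libraries the shortest genes sit near -0.27 and the longest near 0.24, and the spread is smaller without AS 1.

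Epithelial lists depended on AS 1. Luminal epithelium lines the uterine cavity, and 10 of its 18 genes were below 0 with a median of -0.30. Krt19, a keratin of simple epithelium, ran 953, 3.65 and 17.0 CPM in AS and 196, 30.4 and 37.9 CPM in CP. The AS group thus held both the highest and the lowest library. Without AS 1 the median was 2.11, with 15 of 18 above 0 and 9 higher at an unadjusted p under 0.05, beside 5.34% of all genes. Without AS 1 and CP 1 it was 1.01, with 5 higher at an unadjusted p under 0.05, beside 4.4%. Muc1, a membrane mucin, ran 9.88, 1.15 and 2.57 CPM in AS and 19.9, 20.5 and 8.56 CPM in CP. Pigr, the carrier of IgA across epithelium, ran 56.4, 27.1 and 18.8 CPM against 142, 172 and 36.5 CPM. Cldn4, a tight junction protein, went the other way, at 21.9, 5.95 and 4.94 CPM against 1.51, 1.01 and 0.571 CPM. Sox9, a transcription factor of glandular epithelium, did not overlap between groups, at 32.1, 7.10 and 11.5 CPM against 60.1, 52.7 and 41.3 CPM (edgeR adjusted p = 0.374).
Stratified epithelium, which should be sparse in the uterine cavity, had a median of 1.07 over 9 genes, which was 3.62 without AS 1 and -0.15 without CP 3. Of the 9 genes, 6 were above 0 and 3 below, the lowest at -2.61. The groups did not overlap for 1 higher and 1 lower member (11.1% each, beside 8.73% and 9.22% of all genes). The summed level of the list was 141, 9.40 and 16.8 CPM in AS and 44.2, 46.8 and 66.6 CPM in CP. Of its defining genes Krt6a and Dsc3 were at 0 in all 6 libraries.

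Hemoglobin transcripts, a measure of blood in the tissue, also followed AS 1. Hba-a2 ran 622, 32.8 and 65.4 CPM in AS and 111, 83.4 and 110 CPM in CP, and its log2 fold change of -1.24 became 1.09 without AS 1. The hemoglobin genes are near-identical copies, so that their separate values are uncertain. Slc25a37, the mitochondrial iron importer, did not overlap between groups, at 8.87, 9.40 and 11.5 CPM against 36.7, 23.5 and 25.7 CPM (log2 fold change 1.53, edgeR adjusted p = 0.286).

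Collagen and scar matrix genes are those that adhesions deposit. Of 25, 20 had a log2 fold change below 0, with a median of -0.36, but 2 were lower at an unadjusted p under 0.05 and 1 was higher, near the background. Serpinh1, the chaperone of collagen folding, ran 383, 295 and 337 CPM in AS and 153, 189 and 188 CPM in CP, with normal tissue at 367 ± 105 CPM (edgeR adjusted p = 0.400). Tnc, tenascin C, ran 0.837, 26.1 and 26.5 CPM in AS against 1.51, 6.04 and 7.61 CPM in CP. Summed, the list stood at 13960, 11710 and 10860 CPM in AS and 7306, 6967 and 11340 CPM in CP, so that CP 3 lay among the AS libraries.
Basement membrane genes had 12 of 20 above 0 and a median of 0.26, which was 0.06 without CP 1 and -0.04 without AS 1 and CP 1. The groups did not overlap for 2 higher members (10%, beside 8.73% of all genes) and 1 lower member, Lamb2 (5%, beside 9.22%). The higher ones were Col4a4 and Col4a5, chains of type IV collagen (log2 fold change 2.53 and 1.20, edgeR adjusted p = 0.309 and 0.319). Lama2, a laminin chain, had a log2 fold change of -1.21 (edgeR adjusted p = 0.392). Itgb8, an integrin subunit that activates latent TGF-beta, ran 1.34, 0.576 and 2.96 CPM in AS and 23.6, 12.3 and 6.66 CPM in CP, with normal tissue at 18.4 ± 9.92 CPM (edgeR adjusted p = 0.226, called by DESeq2). Tgfb3, a TGF-beta ligand, ran 1.67, 1.92 and 2.57 CPM in AS against 0.251, 0.168 and 0 CPM in CP. Over 22 genes of TGF-beta signalling 14 were above 0, with 0 higher and 1 lower, Tgfb3, at an unadjusted p under 0.05. The groups did not overlap for 5 higher members, Tgfb1, Tgfbr1, Tgfbr2, Ccn2 and Skil (22.7%, beside 8.73% of all genes). They did not overlap for 1 lower member, Tgfb3 (4.55%, beside 9.22%).

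Genes of Wnt signalling, which steers uterine gland formation, were mixed, with 10 of 22 above 0. Axin2, a feedback target of the pathway, ran 24.1, 26.7 and 48.4 CPM in AS and 55.6, 61.6 and 169 CPM in CP (log2 fold change 1.53, edgeR adjusted p = 0.312). Its co-receptor Lrp6 ran 0.335, 2.69 and 0.988 CPM against 16.6, 2.85 and 4.38 CPM. Sfrp2, a secreted antagonist, ran 5.69, 56.8 and 54.9 CPM against 11.1, 17.5 and 7.80 CPM, where AS 1 lay below every CP library.

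Of 23 macrophage genes 17 were below 0, with a median of -0.49. At an unadjusted p under 0.05, 2 were lower (8.70%, beside 6.71% of all genes), while 0 had groups that did not overlap (beside 17.9%). Tyrobp, an adaptor of myeloid receptors, ran 339, 80.2 and 50.2 CPM in AS and 27.4, 42.1 and 99.1 CPM in CP, with a log2 fold change of -0.17 once AS 1 was left out. Interferon response genes had 17 of 27 above 0 with a median of 0.32, and 0 higher and 1 lower at an unadjusted p under 0.05. The sign of that median rested on CP 3 and was negative without it (-0.58). The summed list stood at 1182, 1287 and 870 CPM in AS and 714, 731 and 1303 CPM in CP, so that CP 3 alone reached the AS levels.
Of 12 genes of MHC class II presentation, 4 (33.3%) had groups that did not overlap, beside 17.9% of all genes, 1 of them higher and 3 lower. At an unadjusted p under 0.05, 1 was higher and 3 were lower (33.3% beside 12%), and without AS 1, 2 were higher and 0 lower. The lower genes without overlap were RT1-Ba, Cd74, the invariant chain, at 134, 167 and 122 CPM in AS and 80.2, 84.3 and 101 CPM in CP, and Ifi30, a thiol reductase of antigen processing, at 61.8, 23.8 and 26.1 CPM against 5.03, 13.3 and 23.6 CPM. The class II chains RT1-Ba and RT1-Bb went in opposite directions. RT1-Bb ran 3.68, 9.02 and 3.95 CPM in AS and 12.1, 31.1 and 26.8 CPM in CP, while RT1-Ba ran 153, 77.7 and 47.4 CPM against 43.7, 28.2 and 35 CPM (edgeR adjusted p = 0.286 and 0.312). The chains pair in 1 molecule and the RT1 genes lie among similar copies, so that their counts are uncertain. Of 27 chemokine and cytokine genes, 2 were higher (7.41%, beside 5.28%) and 1 lower (3.70%, beside 6.71%) at an unadjusted p under 0.05. The lower one was Cxcl13, a chemokine that draws B cells, at 15.9, 30.7 and 11.9 CPM in AS and 7.79, 7.22 and 6.85 CPM in CP. The higher ones were Il18, at 3.52, 4.99 and 0.988 CPM against 17.3, 2.52 and 12.9 CPM, and Cxcl6, with 0 counts in AS and 13 in CP. Neutrophil genes were few, with 6 of 17 tested and 0 at an unadjusted p under 0.05.

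Of 23 endothelial and vessel genes tested, 14 were above 0 with a median of 0.30, which was -0.04 without AS 1. At an unadjusted p under 0.05, 1 was higher and 2 were lower, and 3 did not overlap and were higher (Vegfa, Kdr and Nos3) while 2 did not overlap and were lower (Lyve1 and Pdpn), 21.7% in all beside 17.9% of all genes. Vegfa, the main vessel growth factor, ran 12.6, 34.5 and 33.4 CPM in AS and 65.4, 51.5 and 58.0 CPM in CP, beside 22.9 ± 8.58 CPM in normal tissue (edgeR adjusted p = 0.389). Kdr, a receptor for it, ran 13.7, 18.8 and 17.0 CPM against 19.9, 20.0 and 22.6 CPM, and Nos3, the endothelial nitric oxide synthase, ran 8.37, 18.2 and 29.6 CPM against 40.5, 55.7 and 33.7 CPM. Lyve1 and Pdpn, which are used as markers of lymphatic vessels and are also made by other cells, had log2 fold changes of -1.05 and -1.56. Flt4, another lymphatic marker of the list, had 0 counts in AS and 2 in CP and was not tested, and Prox1, the lymphatic transcription factor, was at 0 to 0.576 CPM in AS and 0 to 3.04 CPM in CP (log2 fold change 2.41). Jun, an immediate-early factor, ran 42, 57.2 and 51.6 CPM in AS and 82.4, 93.5 and 75.2 CPM in CP. Atf3, a stress-induced factor, ran 2.68, 6.14 and 6.92 CPM against 18.1, 10.6 and 11.8 CPM. Hspe1 and Hspb1, heat-shock proteins, were lower without overlap (log2 fold change -1.41 and -1.13), and Hspb1 was at -0.32 without AS 1. Of 22 genes of oxidative stress 16 were below 0 with a median of -0.44, which was -0.05 without AS 1. Of them 5 (22.7%, beside 6.71% of all genes) were lower at an unadjusted p under 0.05 and 3 did not overlap, namely Gpx3, Nqo1 and Sod1, and 0 were higher. With all libraries DESeq2 called 1, Gpx3. In the edgeR fit without AS 1, 3 were lower at an unadjusted p under 0.05, beside 3.86%.
Fgf9, a fibroblast growth factor, ran 0.670, 0.192 and 0.198 CPM in AS and 8.80, 3.69 and 2.66 CPM in CP. Esr1, the estrogen receptor, ran 80.2, 162 and 139 CPM against 63.1, 99.6 and 62.2 CPM. Progesterone and decidual genes had a median of 0.02, with 0 of 18 at an unadjusted p under 0.05. Cell cycle genes had 19 of 26 below 0 and a median of -0.46, which was 0.11 without AS 1 and CP 1.

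Of 23 estrogen-induced genes, 4 (17.4%, beside 5.28% of all genes) were higher at an unadjusted p under 0.05 and 2 (8.70%, beside 6.71%) were lower. The higher ones were Fgf9, Jun, Vegfa and Muc1, and the lower ones Clu, clusterin, and Padi2, a peptidylarginine deiminase. Without AS 1, 7 were higher, beside 5.34%, and 1 was lower. The groups did not overlap for 3 higher and 1 lower member (17.4% beside 17.9%), and the median was -0.13, which was 0.39 without AS 1.
Endometrial stroma had 12 of 21 genes below 0 (median -0.13) and uterine glands 4 of 9 (0.16, and 0.79 without AS 1). Integrins and matrix receptors had 12 of 21 above 0 (median 0.17), matrix proteases and inhibitors 8 of 16 (0.15) and proteoglycans 7 of 14 (-0.03). Pericytes had 5 of 10 above 0 (-0.10). Hypoxia and glycolysis had 15 of 21 below 0 with a median of -0.48 and 4 lower at an unadjusted p under 0.05 (19%, beside 6.71%), a number that was 0 without AS 1. Immediate-early and heat-shock genes had 14 of 27 below 0 (-0.12).
Among immune lists, class II presentation had 8 of 12 below 0 (median -0.61, and -0.10 without AS 1) and class I presentation 10 of 16 above 0 (0.23, and -0.02 without CP 3). Chemokines and cytokines had 17 of 27 below 0, with a median of -0.27 that was 0.34 without AS 1. Complement had a median of -0.01, coagulation -0.32, T and NK cells -0.14, neutrophils -0.17, alternatively activated macrophages -0.22, B and plasma cells -0.17 and mast cells and eosinophils 0.17. The last 2 rest on 4 genes each.
Markers of tissues around the uterus were uneven between libraries. Adipocyte genes had 8 of 10 below 0 with a median of -1.15, which turned to 0.25 without AS 2. That library alone was high for the summed list, at 263 CPM against 75.5 and 71.4 CPM in the other AS libraries and 134, 57.9 and 73.3 CPM in CP. Nerve and Schwann cell genes had 6 of 9 below 0 with a median of -0.85, which was -0.24 without AS 1 and 0.29 without AS 2. Mesothelial genes had a median of 0.91 over 8 genes, which include Krt5 and Krt19. AS 1 was the highest library for the summed mesothelial list (961 CPM, against 30.7 to 225 in the other 5 libraries), for macrophages (3002 against 607 to 1369 CPM) and for erythrocytes (2848 against 220 to 734 CPM). AS 1 was also the highest for the ribosomal protein and respiratory chain sums, and the part of these in one another was not tested. Of the 38 list medians, 12 kept their sign in all 15 alternative settings tried for each. These were the ribosomal protein, respiratory chain, smooth muscle, collagen, basement membrane, TGF-beta, macrophage, class II, coagulation, cell cycle, hypoxia and oxidative stress lists. Of these 12, the cell cycle median turned positive and the basement membrane median negative (-0.04) without AS 1 and CP 1 together. The other 26 changed sign in at least 1 setting.

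**Figure D5:**
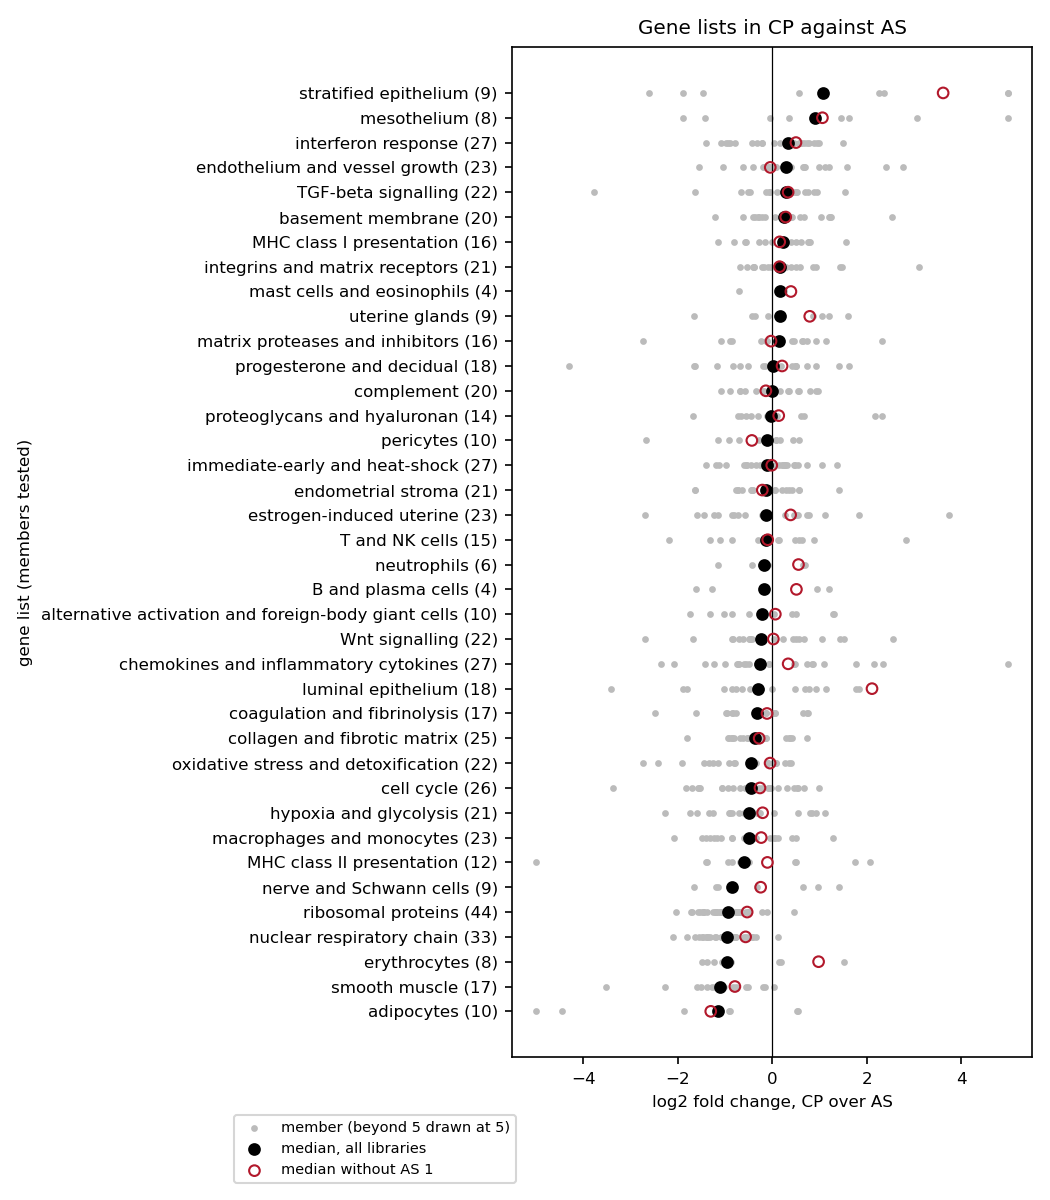
The log2 fold change of CP over AS (horizontal) for each tested member of 38 gene lists (grey points, one row per list, number tested in brackets), with the median over all libraries (black) and without AS 1 (red circle). Smooth muscle, respiratory chain and ribosomal proteins sit at -1.11, -0.96 and -0.94, and the luminal epithelium and erythrocyte medians move to the right of 0 without AS 1.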

How the data were processed

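The authors deposited gene-level raw counts of 12 QuantSeq 3′ mRNA-seq libraries (1000 ng RNA, single-end 75 bp). Bowtie2, bedtools and edgeR are named without versions, per the labels' protocols and the submitters' processing notes; the information sheet names mRatBN7.2 (rat), while mm10 (mouse) is the build in the notes. The authors also deposited log2 values of TMM-scaled CPM with 1 added, a fold ratio and p-values and q-values for each comparison; the deposited log2 values were recomputed to within 0.0625. The members and gene lists were chosen with earlier results of these data known. Counts were fitted with edgeR 4.0.16 (TMM, filterByExpr by group, quasi-likelihood test, all 12 libraries, contrast CP over AS), leaving 13909 of 34034 genes. Alternatives used DESeq2 1.42.0 and limma 3.58.1 in R 4.3.3, other filters and scalings, and fits without single libraries. Named genes are up to 12 in each direction by smallest p, and up to 3 of each of the 38 lists, plus Fam111a. Genes with LOC, RGD, AABR or AC identifiers were passed over in the ranking unless called. Others in the text are list members named after their values were seen. On simulated counts for CP against AS over 13909 genes, edgeR called 16% of 4-fold and 54% of 8-fold changes, and DESeq2 called 40% and 60%. Of the genes left unchanged there, edgeR called 0.0387% and DESeq2 0.282%. The simulated counts used the spread that edgeR estimated, 1 mean per gene over all groups and no outlying library. RefSeq promoters were matched by gene ID. Counting intervals and floors cover counting error only.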

Additional observations from a re-analysis of the deposited data

How the results depend on the processing

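The count of called genes was 1 with RLE scaling, the filter of 5 CPM in 3 libraries, CP and AS alone, or mitochondrial genes left out. It was 132 with DESeq2, 0 with limma voom, 230 with no low-count filter (229 of these are among the 13909 genes tested), 2 with the mitochondrial share as a covariate, 2 at an adjusted p under 0.10, and 1 to 5 without single libraries, 5 without AS 1 and 3 without CP 1. Without AS 1 and CP 1 together, an alternative chosen after seeing the data, it was 6; LOC100360413, at 272 CPM in AS 1 and 5.76 CPM in AS 2, was called higher there and without AS 1. Same-numbered CP and AS libraries did not deviate together (correlations 0.02, 0.01 and -0.03). With 3 libraries in each group these values cannot decide whether same-numbered libraries share an animal. With the replicate block 1 gene was called and the mitochondrial difference was 0.177 points. That difference of shares ran from -5.43 to 3.43 points without single libraries and was -6.60 without AS 1 and CP 1, and -1.79 for protein-coding mitochondrial genes alone. Genes with groups that did not overlap numbered 2512 with RLE scaling, 2688 with no low-count filter and 2139 with the filter of 5 CPM, against 2496. The cause of these changes was not tested. Fam111a kept its direction in each of the 15 other settings listed for it and without AS 1 and CP 1 together.

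Of 2046 log2 fold changes of named genes under alternatives, 32 in 15 genes changed direction, and none of these genes had passed the test. Under limma voom the values were 2.26 for Padi4, 4.08 for Ccr3, 0.22 for Mfap5, 0.76 for Hba-a2, 1.03 for Hba-a3, -0.11 for Lcn2, -0.11 for Gata2 and -0.12 for Erbb3. With the replicate block they were 0.068 for Padi4 and 1.65 for Ccr3. With libraries left out, the ranges were -2.15 to 0.16 for Tyrobp, -1.71 to 1.89 for Padi4, -0.36 to 1.06 for Lcn2, -2.16 to 0.35 for Cd8a, -5.94 to 4.37 for Fcrla, -1.50 to 7.68 for Ccr3, -0.20 to 0.46 for Gata2 and -0.091 to 1.60 for Kit. They were -2.03 to 0.069 for Anxa2, -2.16 to 0.18 for Mfap5, -1.53 to 0.24 for Hsd11b1, -0.37 to 1.98 for Erbb3, -2.23 to 0.31 for S100b, -1.74 to 1.09 for Hba-a2 and -2.15 to 1.89 for Hba-a3.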
